A study of Mus musculus with 12 samples.

Results

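The transcriptional response of mouse leukemic pre-B cells, a model of acute lymphoblastic leukemia (B-ALL), to stabilized β-catenin was compared between cells edited with nontargeting guides and cells edited at Ikzf1 and Ikzf3. For each gene, the comparison was the difference between 2 differences, (Cre-ERT2 KO minus ERT2 KO) minus (Cre-ERT2 WT minus ERT2 WT), termed the interaction. All 12151 genes of the table and all 12 libraries of the series entered it, with 3 libraries in each of 4 groups. A positive interaction means a larger rise, or a smaller fall, with β-catenin in KO than in WT cells.

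All 4 groups were pre-B cells grown from mouse bone marrow with IL-7, transformed by retroviral BCR-ABL1, and carried 1 floxed exon 3 allele of Ctnnb1 (Ctnnb1Ex3fl/+, the β-catenin(S33;S45)+/fl model of the study). ERT2 WT cells (sgNTC) had nontargeting guides and a vector for the hormone-binding ERT2 domain alone, and Cre-ERT2 WT cells had the same guides and a vector for Cre fused to ERT2. ERT2 KO and Cre-ERT2 KO cells carried the same vectors after Cas9 editing of Ikzf1 and Ikzf3. The Cre-ERT2 minus ERT2 difference is termed the β-catenin effect. No group had Cre-ERT2 without the floxed allele, so an effect of Cre itself cannot be told apart from that of stabilized β-catenin. The mice were 6 to 12 weeks old, lines were grown out from single edited cells, transduced cells were sorted on GFP, and 4-OHT (the tamoxifen metabolite that activates Cre-ERT2) was given 1 day before collection. The 1 day interval is stated in wording written for chromatin experiments. The labels do not tie libraries to lines, nor say whether replicates were separate lines, cultures or days, so adjusted p values measure the spread between these libraries, which may be technical, and a property of a single line cannot be told apart from the background.

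β-catenin is the transcriptional arm of Wnt signaling. It lacks a DNA-binding domain and acts through TCF and LEF factors, which hold corepressors of the TLE family at their sites until β-catenin displaces them. A destruction complex of Axin, Apc, GSK3β and CK1α phosphorylates serines and threonines encoded by exon 3 of Ctnnb1, and the marked protein is degraded. Ikaros (Ikzf1) and Aiolos (Ikzf3) are zinc finger factors of lymphoid cells that recruit the NuRD repressor complex and restrain pre-B cell proliferation. Loss of Ikaros function is frequent in high-risk human B-ALL.

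Both genetic inputs of the comparison can be read at the sequence level. The guide targets below are the designed 20-base sequences in lower case. Capitals give the 3 bases that come next on the strand of the target, the NGG motif that Cas9 requires. These bases were read from the GENCODE transcript, as its reverse complement for Ikzf1. The Ikzf1 target lies at chr11:11707798-11707817 (GRCm38) in coding exon 3 of 8, on the opposite strand to the gene, and was found in 5 of 6 coding transcripts. The Ikzf3 target lies at chr11:98490523-98490542 in coding exon 4 of 8, on the same strand as the gene, in 1 of 1 coding transcript.
Ikzf1 target: ctggagtgtcactgactgggGGG
Ikzf3 target: attatgaagccggagcccatGGG
Exon 3 of Ctnnb1, whose excision separates Cre-ERT2 from ERT2 cells, spans chr9:120950522-120950749 (GRCm38, plus strand). Its 228 bases are all coding and a multiple of 3, so that the reading frame continues when the exon is removed. Capitals mark the codons of S33, S37, T41 and S45, the phosphorylated residues that target β-catenin for degradation.
Ctnnb1 exon 3: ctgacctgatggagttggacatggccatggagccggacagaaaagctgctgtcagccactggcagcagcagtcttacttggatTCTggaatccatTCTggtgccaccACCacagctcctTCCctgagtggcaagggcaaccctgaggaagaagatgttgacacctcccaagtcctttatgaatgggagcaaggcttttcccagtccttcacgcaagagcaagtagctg

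The targeted genes were examined first. Ikzf1 (ENSMUSG00000018654, chromosome 11, 11685003 to 11772926, plus strand) had log2 values of 13.75, 13.74 and 13.73 in ERT2 WT, 13.67, 13.70 and 13.66 in Cre-ERT2 WT, 14.75, 14.74 and 14.76 in ERT2 KO and 14.59, 14.56 and 14.61 in Cre-ERT2 KO libraries. Its mRNA was higher in every KO library than in any WT library, so that the table does not show loss of the transcript, and KO stands for the libraries labelled as such. The mRNA level is not a measure of the protein. The study reports that western blots of its single-cell lines showed the deletion of the Ikaros factors. The mRNA of Ikzf3 (ENSMUSG00000018168, chromosome 11, 98464902 to 98546031, minus strand) had log2 values of 11.59, 11.68 and 11.61 in ERT2 WT, 11.93, 11.91 and 11.91 in Cre-ERT2 WT, 10.97, 10.998 and 10.98 in ERT2 KO and 11.34, 11.13 and 11.19 in Cre-ERT2 KO libraries, with all KO values below all WT values. The β-catenin effect on Ikzf1 was -0.062 in WT and -0.17 in KO cells, an interaction of -0.10 (SE 0.0261, adjusted p 0.0422), and the call of Ikzf1 was lost when any 1 of 11 libraries was left out (adjusted p up to 0.106, without Cre-ERT2 WT replicate 2). For Ikzf3 the effects were 0.29 in WT and 0.23 in KO cells, and the interaction of -0.054 was not called (adjusted p 0.732). Ctnnb1 (ENSMUSG00000006932, chromosome 9, 120929216 to 120960507, plus strand) had an interaction of 0.068 (95% confidence interval -0.01 to 0.15) that was not called. Esr1, the gene from which the ERT2 domain of both vectors derives, fell by 2.16 in WT and fell by 2.04 in KO cells, and its interaction of 0.12 was not called (adjusted p 0.265).

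Values are the authors' normalized log2 expression levels. The median per library lay between 9.06 and 9.11, and values ran from 1.76 to 18.87. Sequencing depth is unknown, and precision is given by the replicates alone. The 14 pre-B markers were all present, at 8.08 to 15.20, whereas 0 of 8 erythroid, 1 of 7 stromal, 2 of 14 myeloid, 3 of 8 NK cell, 3 of 10 T cell and 5 of 6 plasma cell markers were in the table. The summed unlogged pre-B marker level was 157523 to 159746 units in ERT2 WT, 162336 to 164594 in Cre-ERT2 WT, 108188 to 108919 in ERT2 KO and 105475 to 106251 in Cre-ERT2 KO libraries. The plasma cell markers, among them Irf4 and Prdm1, which B cells also express, reached 12.57 and summed to 6741 to 7048 units in ERT2 WT, 7715 to 8022 in Cre-ERT2 WT, 4696 to 4880 in ERT2 KO and 6059 to 6076 in Cre-ERT2 KO libraries, with 1 called interaction, a positive one. In bulk samples, fewer cells of a kind and less RNA per cell cannot be told apart.

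The interaction was called (limma, adjusted p under 0.05 over all genes) for 550 genes, or 4.53% of those tested. It was positive for 329 (2.71%) and negative for 221 (1.82%), and 2101 genes passed an unadjusted p of 0.05. Most interactions were small, with a median absolute size of 0.20 among called genes. Of the positive interactions, 185 reached 0.2, 28 reached 0.5 and 5 reached 1 on the log2 scale, and of the negative ones 103, 7 and 2. As a description that uses no model, the 9 possible Cre-ERT2 minus ERT2 differences of each background were compared. All 9 KO differences lay outside the range of the WT differences in 10.3% of genes (above it in 5.77% and below it in 4.57%). This held for 548 of the 550 called genes. The differences share libraries with each other and with the fit, so this count describes the calls and does not test them. Another 14 genes had an interaction of at least 0.5 that was not called, all with overlapping differences, among them Malat1, an abundant nuclear RNA, with -0.63 (SE 0.197, adjusted p 0.106).

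**Figure D1:**
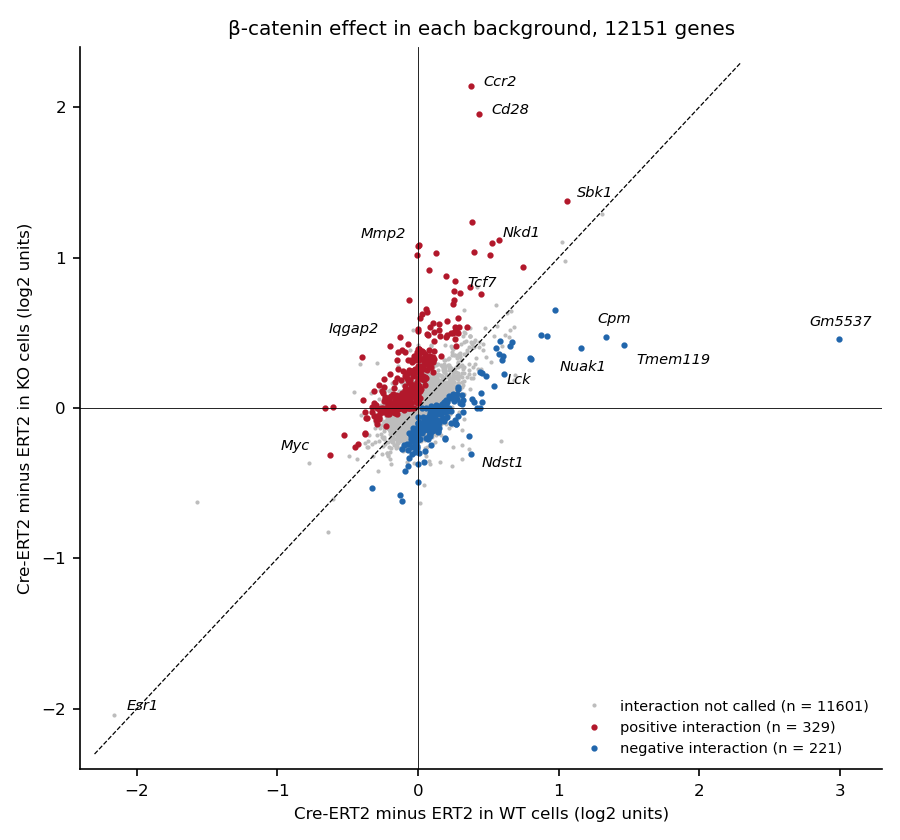
β-catenin effect (mean of 3 Cre-ERT2 minus mean of 3 ERT2 libraries, log2 units) in WT cells on the horizontal and in KO cells on the vertical axis, 1 point per gene, with called interactions in red (329 positive) and blue (221 negative) and equal effects on the dashed line. Ccr2 and Cd28 lie far above the line, Tmem119, Cpm and Nuak1 far below it, and Esr1 close to it.

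The 550 genes fell into several forms. The effect was called in KO cells alone for 241 genes and in WT cells alone for 177. It was called in both backgrounds in the same direction for 51 genes with a larger and 33 with a smaller effect in KO cells. In 26 genes it was called in both with opposite directions, and in 22 in neither. Of the 51 genes with a larger effect in KO cells 45 rose, and their median absolute effect was 0.53 in KO against 0.25 in WT cells. For genes called in KO cells alone, the median absolute effect was 0.18 in KO and 0.033 in WT cells, and for genes called in WT cells alone 0.18 in WT and 0.033 in KO cells. For comparison, the β-catenin effect was called for 11.9% of all genes in WT and 12.6% in KO cells. These effects share their libraries with the interaction, so the forms describe it and do not test it.

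Genes listed as feedback inhibitors of Wnt signaling moved in both directions. Of 7 measured members, 4 had a called interaction (57.1%, against 4.53% of all genes), 3 positive (Nkd1, Znrf3 and Bambi) and 1 negative (Axin2), with a median of 0.072 against 0.0011 for all genes. Bambi is counted in this share although it is a receptor of the TGF-β family. The study itself names 4 of the 7 members as β-catenin targets, so the list is not independent evidence of a response. Nkd1, which binds Dishevelled and dampens the Wnt signal, had log2 values of 6.26, 6.28 and 6.26 in ERT2 WT, 6.78, 6.79 and 6.81 in Cre-ERT2 WT, 6.38, 6.34 and 6.41 in ERT2 KO and 7.44, 7.52 and 7.46 in Cre-ERT2 KO libraries. Its ERT2 levels were close between the backgrounds, whereas all Cre-ERT2 KO libraries lay above all others, and its rise was 0.53 in WT and 1.10 in KO cells (interaction 0.57, SE 0.0384, adjusted p 2.74e-06).

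Axin2, a scaffold of the destruction complex and a common reporter of Wnt activity, ran the other way. It had log2 values of 5.08, 5.09 and 5.09 in ERT2 WT, 5.38, 5.35 and 5.39 in Cre-ERT2 WT, 5.01, 5.01 and 5.01 in ERT2 KO and 5.15, 5.17 and 5.14 in Cre-ERT2 KO libraries. The gene rose in both backgrounds, and all 9 KO differences (0.13 to 0.16) lay below all 9 WT differences (0.25 to 0.31), with an interaction of -0.15 (SE 0.0228, adjusted p 0.00284). Its level was low in every library. Bambi, a decoy receptor of the TGF-β family, fell by 0.11 in WT cells alone (interaction 0.13, SE 0.0219, adjusted p 0.00463). Znrf3, a ubiquitin ligase that removes Frizzled receptors, rose by 0.13 in KO cells and had an interaction of 0.14 (SE 0.0336, adjusted p 0.0365), and the call of Znrf3 was lost when any 1 of 10 libraries was left out (adjusted p up to 0.0924, without Cre-ERT2 WT replicate 1). Kremen1, a coreceptor of the Wnt antagonist Dkk1, had an interaction of -0.15 (95% confidence interval -0.28 to -0.017) and Nkd2 of 0.072 (95% confidence interval -0.055 to 0.20), neither of them called.

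Among the nuclear partners of β-catenin, 3 of 16 had a called interaction (18.8%). Tcf7, which encodes the T cell factor TCF1, had log2 values of 7.05, 7.05 and 7.10 in ERT2 WT, 7.31, 7.35 and 7.33 in Cre-ERT2 WT, 7.43, 7.36 and 7.40 in ERT2 KO and 8.25, 8.23 and 8.24 in Cre-ERT2 KO libraries. All KO values lay above all WT values, and the step from ERT2 to Cre-ERT2 was 0.26 in WT and 0.85 in KO cells (interaction 0.58, SE 0.0377, adjusted p 2.04e-06), so that the Cre-ERT2 KO group stood apart. Aes, a short TLE-related protein, rose in KO cells alone, by 0.13, at a low level (interaction 0.14, SE 0.0237, adjusted p 0.00535). Tcf7l1, a TCF factor with mainly repressive function, had an interaction of -0.16 (SE 0.0383, adjusted p 0.0393), and the call of Tcf7l1 was lost when any 1 of 10 libraries was left out (adjusted p up to 0.0962, without ERT2 WT replicate 1). Tle3, a corepressor, rose by 0.32 in WT and 0.17 in KO cells. Its interaction of -0.14 was not called (95% confidence interval -0.24 to -0.041), although its KO and WT differences did not overlap. No gene in the list of the destruction complex and its regulators (0 of 18) had a called interaction. Axin2 was counted with the feedback inhibitors and is not in that list. No subunit of NuRD (0 of 14), the complex recruited by Ikaros, had a called interaction. At an unadjusted p of 0.05 these counts were 1 and 2, against 2101 of 12151 over all genes.

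**Figure D2:**
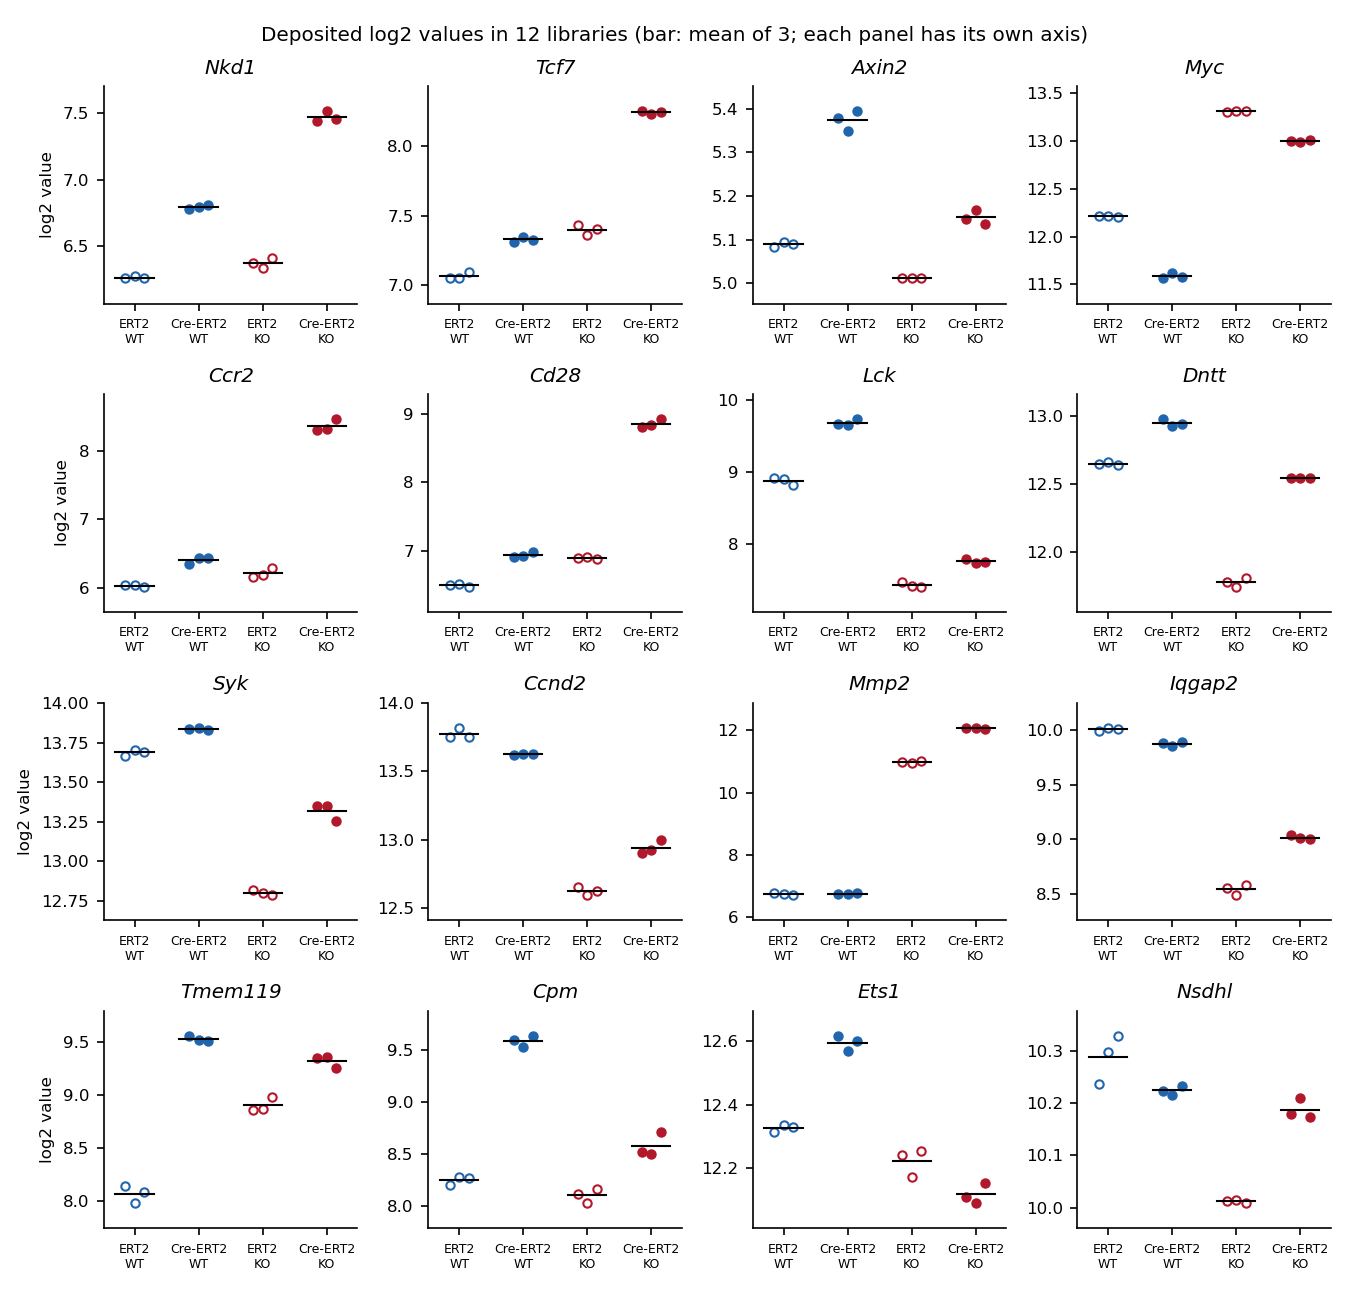
Deposited log2 value (vertical axes, scaled per panel) of 16 genes in the 12 libraries, with WT libraries in blue, KO libraries in red, ERT2 as open and Cre-ERT2 as filled circles and a bar at the mean of 3. Nkd1, Tcf7, Ccr2 and Cd28 are highest in Cre-ERT2 KO libraries, Ccnd2 and Iqgap2 fall in WT and rise in KO cells, and Ets1 rises in WT and falls in KO cells.

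Myc, the transcription factor that drives growth in these cells, had log2 values of 12.22, 12.22 and 12.20 in ERT2 WT, 11.56, 11.62 and 11.58 in Cre-ERT2 WT, 13.30, 13.31 and 13.31 in ERT2 KO and 13.000, 12.99 and 13.01 in Cre-ERT2 KO libraries. The 9 KO differences were -0.32 to -0.30 and the 9 WT differences -0.66 to -0.58. The interaction was 0.31 (SE 0.0273, adjusted p 2.7e-05) on the log2 scale and had the opposite sign on the unlogged scale. Prdm1, a repressor of Myc, had effects of 0.66 in WT and 0.64 in KO cells (interaction -0.02, 95% confidence interval -0.091 to 0.052), and Pax5, a factor of B cell identity, of -0.22 in WT and -0.30 in KO cells (interaction -0.076, 95% confidence interval -0.18 to 0.032), and neither interaction was called.

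Nucleolar and ribosome biogenesis genes, many of which are Myc targets, had a called interaction in 6 of 60 cases (10.0%), all positive. In WT cells 44 of the 60 members fell (5.95% of all genes did) and 0 rose (5.93% of all genes), and in KO cells 11 fell (5.33% of all genes). The interaction had a positive sign in 55 of 60 members, against 50.8% of all genes, with a median of 0.091. The counts of falls in each background are no test of their difference, which 54 members did not pass. Heatr1, a factor of ribosomal RNA transcription, had log2 values of 12.60, 12.58 and 12.54 in ERT2 WT, 12.33, 12.40 and 12.38 in Cre-ERT2 WT, 12.52, 12.47 and 12.43 in ERT2 KO and 12.49, 12.50 and 12.44 in Cre-ERT2 KO libraries, that is a fall of 0.21 in WT and no called change in KO cells (interaction 0.21, SE 0.0402, adjusted p 0.0113). Srm, the spermidine synthase, fell by 0.37 in WT and 0.17 in KO cells (interaction 0.21, SE 0.0447, adjusted p 0.0202), and the call of Srm was lost when any 1 of 6 libraries was left out (adjusted p up to 0.0573, without ERT2 WT replicate 1). The 6 calls dropped to 1 without Cre-ERT2 WT replicate 2 or 3 or ERT2 KO replicate 3, to 2 without ERT2 KO replicate 2 or Cre-ERT2 KO replicate 2, and to 3 without ERT2 WT replicate 3, Cre-ERT2 WT replicate 1 or ERT2 KO replicate 1, and the list median ran from 0.073 to 0.11 over the log2-scale alternatives. Another list of genes linked to Myc, Myc-linked metabolism, had 18 positive and 15 negative signs among 33 members, a median interaction of 0.01 and median effects of -0.081 in WT and -0.07 in KO cells, and 5 called interactions (15.2%), 2 positive and 3 negative.

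Ribosomal protein genes had mostly positive signs and few calls. Of 82 cytosolic ribosomal proteins 77 had a positive interaction, with a median of 0.078 (-0.04 in WT and 0.035 in KO cells), and 0 were called. At an unadjusted p of 0.05, 26 of the 82 passed, against 2101 of 12151 over all genes. The number called was 4 without ERT2 WT replicate 3 and 7 without Cre-ERT2 KO replicate 1. The sign was also positive in 60 of 76 mitochondrial ribosomal proteins (median 0.04, 1 called, positive) and in 68 of 83 nuclear genes of oxidative phosphorylation (median 0.033, 1 called, positive). Aminoacyl-tRNA synthetases, which charge tRNAs with amino acids, were evenly split, with 19 positive and 18 negative signs among 37 members, a median of 0.0057 and 1 call, a negative one. Members of a list are not independent of each other, so the sign counts are descriptions.

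**Figure D3:**
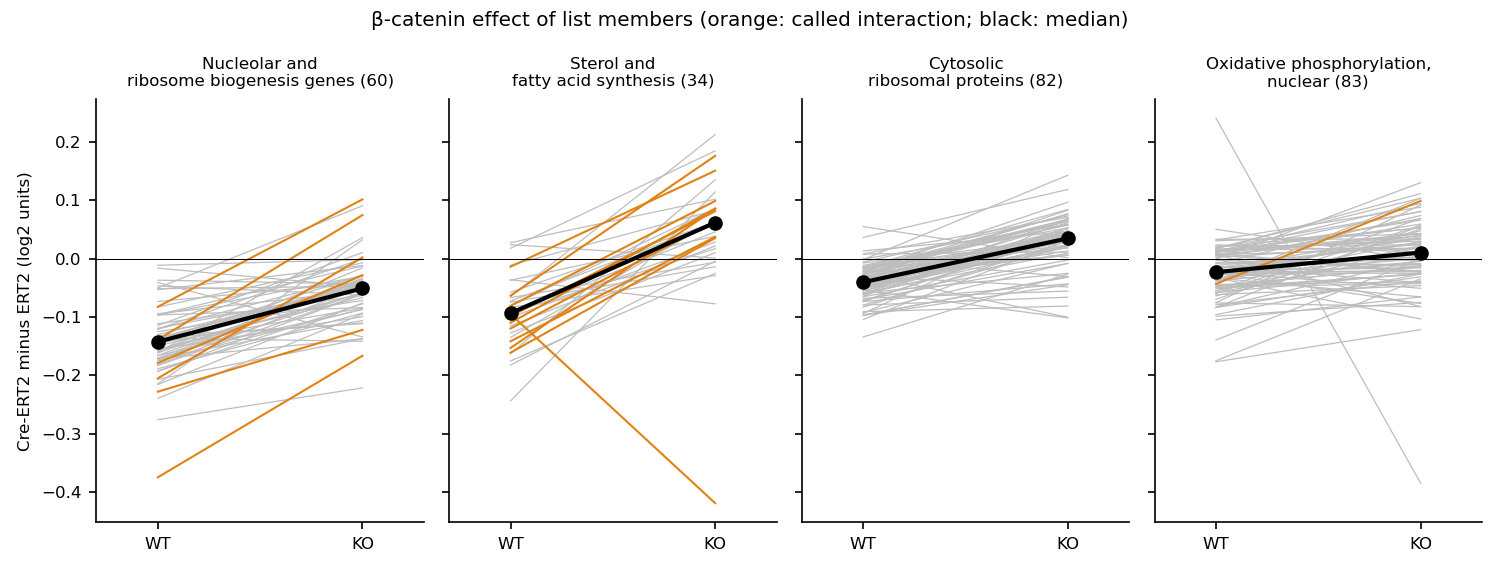
β-catenin effect (log2 units) of each member of 4 gene lists in WT (left) and KO cells (right), 1 line per gene, orange where the interaction was called, with the list median in black. The nucleolar median rises from -0.14 to -0.051, the sterol and fatty acid median from -0.094 to 0.061, and Fasn is the called gene of its list that falls from WT to KO.

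Sterol and fatty acid synthesis genes had a called interaction in 10 of 34 cases (29.4%), 9 positive and 1 negative. In WT cells 9 of 34 members fell and 0 rose, and in KO cells 5 rose (7.27% of all genes did) and 1 fell. The interaction had a positive sign in 31 of 34 members, with a list median of 0.15, and 24 members did not pass its test. Nsdhl, a sterol dehydrogenase, had log2 values of 10.24, 10.30 and 10.33 in ERT2 WT, 10.22, 10.22 and 10.23 in Cre-ERT2 WT, 10.01, 10.02 and 10.01 in ERT2 KO and 10.18, 10.21 and 10.17 in Cre-ERT2 KO libraries. Its ERT2 and Cre-ERT2 values were close in WT cells and apart in KO cells, where it rose by 0.18 (interaction 0.24, SE 0.0364, adjusted p 0.00234). Mvd, which makes isopentenyl diphosphate, fell by 0.15 in WT cells alone (interaction 0.24, SE 0.0429, adjusted p 0.00691). Scd2, a stearoyl-CoA desaturase, fell by 0.16 in WT cells alone (interaction 0.20, SE 0.0366, adjusted p 0.0087).

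Fasn, the fatty acid synthase, was the 1 called member with a negative interaction. It had log2 values of 11.77, 11.74 and 11.65 in ERT2 WT, 11.60, 11.64 and 11.64 in Cre-ERT2 WT, 11.40, 11.65 and 11.53 in ERT2 KO and 11.05, 11.17 and 11.10 in Cre-ERT2 KO libraries, a fall of 0.42 in KO cells and an interaction of -0.32 (SE 0.0763, adjusted p 0.0334), and the call of Fasn was lost when any 1 of 9 libraries was left out (adjusted p up to 0.0767, without ERT2 WT replicate 3). Further called members, chosen after their values were seen, included Hmgcs1 (0.20), Fads2 (0.16), Mvk (0.18), Cyp51 (0.18) and Dhcr7 (0.18). The last 3, all enzymes of cholesterol synthesis, each lost the call in 10 of 12 leave-one-out fits, with adjusted p values up to 0.116 for Mvk. The number of called members was 5 without ERT2 WT replicate 2 or ERT2 KO replicate 3 and 6 without ERT2 WT replicate 3, Cre-ERT2 WT replicate 1 or ERT2 KO replicate 1, and the median lay between 0.13 and 0.16 over the log2-scale alternatives.

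Above the expression level of the median gene, Mmp2 had the largest positive interaction. Mmp2, a secreted gelatinase that cleaves matrix proteins, had log2 values of 6.77, 6.73 and 6.71 in ERT2 WT, 6.73, 6.73 and 6.75 in Cre-ERT2 WT, 10.97, 10.96 and 11.01 in ERT2 KO and 12.07, 12.09 and 12.03 in Cre-ERT2 KO libraries. It was flat and low in WT cells, high in all KO libraries, and rose by 1.09 in KO cells (interaction 1.08, SE 0.0388, adjusted p 8.2e-09). Aplp2, a membrane protein related to the amyloid precursor, had log2 values of 11.13, 11.11 and 11.05 in ERT2 WT, 11.04, 11.17 and 11.16 in Cre-ERT2 WT, 11.26, 11.30 and 11.31 in ERT2 KO and 11.91, 11.93 and 11.91 in Cre-ERT2 KO libraries. The 3 Cre-ERT2 KO libraries stood above the other 9, which lay within 0.3 of each other (interaction 0.60, SE 0.0479, adjusted p 1.38e-05). Phlda1, a growth factor response gene, rose in both backgrounds, by 0.58 in WT and 1.11 in KO cells (interaction 0.54, SE 0.0444, adjusted p 1.88e-05).

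Iqgap2, a scaffold at the actin cytoskeleton, had log2 values of 9.99, 10.02 and 10.01 in ERT2 WT, 9.89, 9.85 and 9.89 in Cre-ERT2 WT, 8.56, 8.49 and 8.58 in ERT2 KO and 9.04, 9.01 and 9.004 in Cre-ERT2 KO libraries. It fell in WT and rose in KO cells, without reaching its WT level (interaction 0.60, SE 0.0392, adjusted p 2.04e-06). Ccnd2, a D cyclin, had log2 values of 13.75, 13.82 and 13.75 in ERT2 WT, 13.62, 13.63 and 13.62 in Cre-ERT2 WT, 12.65, 12.59 and 12.62 in ERT2 KO and 12.90, 12.93 and 12.99 in Cre-ERT2 KO libraries, and the same form (interaction 0.47, SE 0.0391, adjusted p 1.88e-05). Further genes that fell in WT and rose in KO cells were Ehd2, a membrane-shaping ATPase (interaction 0.43), Tmem229b (0.42) and Rasgrp1, an activator of Ras downstream of antigen receptors (0.43). Eps8, an actin regulator (interaction 0.46), and the small GTPase Rab31 (0.45) rose in KO cells alone. The lipase Abhd2 (interaction 0.43) and Sbk1, a serine/threonine kinase (0.32), rose in both and more in KO cells, the last with the opposite sign on the unlogged scale.

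**Figure D4:**
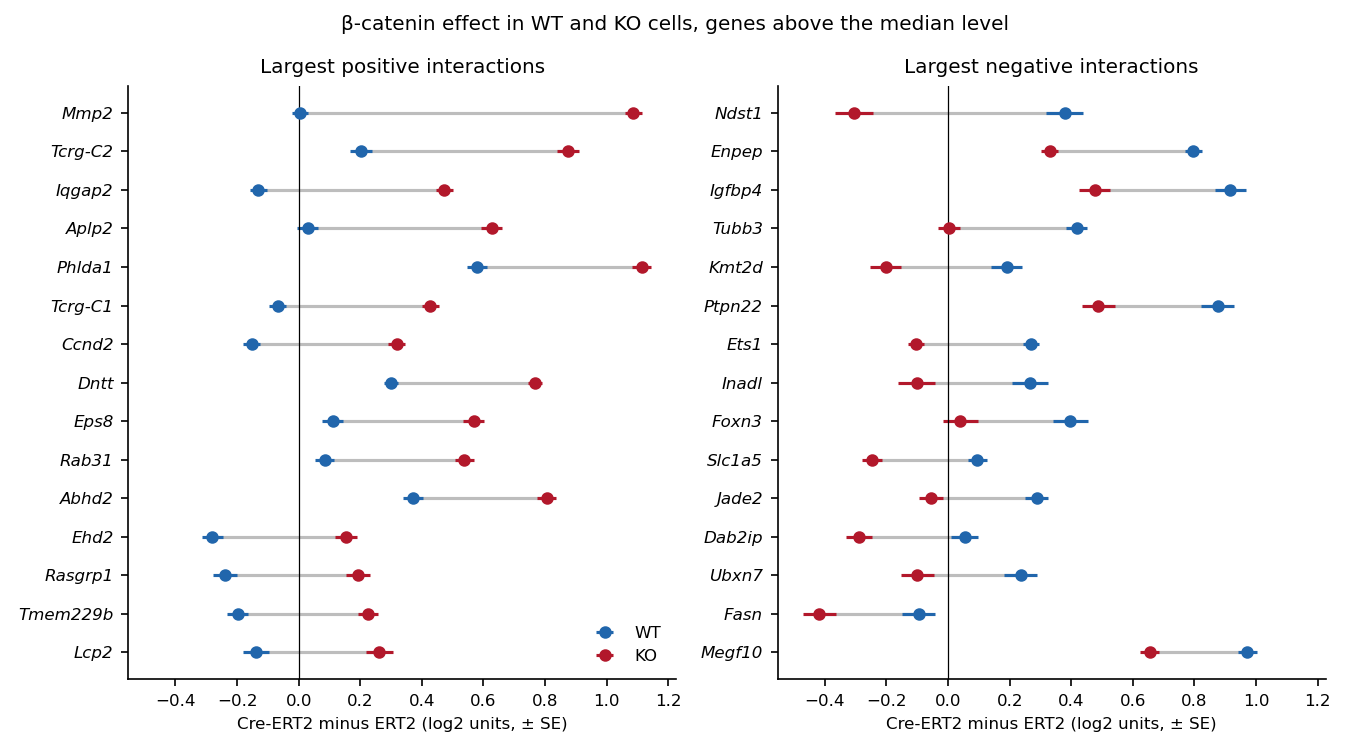
β-catenin effect (log2 units, horizontal axis, bars are ± SE) in WT (blue) and KO cells (red) for the 15 largest positive and 15 largest negative called interactions above the level of the median gene, leaving out pseudogenes and genes without a proper name. Mmp2 moves in KO cells alone, and Ndst1, Kmt2d and Ets1 lie on opposite sides of 0.

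On the log2 scale the largest interaction of either sign was that of Gm5537, a processed pseudogene, named after its values were seen. The limma fit on unlogged values did not call it (adjusted p 0.141). Gm5537 had log2 values of 7.57, 7.57 and 7.56 in ERT2 WT, 10.60, 10.60 and 10.47 in Cre-ERT2 WT, 11.06, 11.20 and 10.91 in ERT2 KO and 11.62, 11.39 and 11.54 in Cre-ERT2 KO libraries. Cre-ERT2 WT libraries approached the level that KO libraries had in both groups (effects 2.99 in WT and 0.46 in KO cells, interaction -2.53, SE 0.0983, adjusted p 1.34e-08). Reads of a processed pseudogene may come from its parent gene, so its value is uncertain. Among named genes above the median level, Ndst1, which sulfates heparan sulfate chains, had the largest negative interaction. Ndst1 had log2 values of 9.13, 9.04 and 9.07 in ERT2 WT, 9.47, 9.33 and 9.58 in Cre-ERT2 WT, 9.53, 9.33 and 9.38 in ERT2 KO and 9.14, 9.07 and 9.12 in Cre-ERT2 KO libraries. The gene rose by 0.38 in WT and fell by 0.31 in KO cells (interaction -0.68, SE 0.0866, adjusted p 0.000591). Ets1, a lymphoid transcription factor, had log2 values of 12.31, 12.33 and 12.33 in ERT2 WT, 12.62, 12.57 and 12.60 in Cre-ERT2 WT, 12.24, 12.17 and 12.25 in ERT2 KO and 12.11, 12.09 and 12.16 in Cre-ERT2 KO libraries, and likewise changed in opposite directions (interaction -0.37, SE 0.0365, adjusted p 6.74e-05). Kmt2d, a histone H3K4 methyltransferase, had effects of 0.19 in WT and -0.20 in KO cells (interaction -0.39, SE 0.072, adjusted p 0.00767).

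Enpep, the glutamyl aminopeptidase known as BP-1 on pre-B cells, rose in both backgrounds, by 0.80 in WT and 0.33 in KO cells (interaction -0.47, SE 0.04, adjusted p 2.4e-05). Tubb3, a β-tubulin, rose in WT cells alone, by 0.42 (interaction -0.41, SE 0.0494, adjusted p 0.000354), as did Tubb2b, by 0.30 (interaction -0.26, SE 0.0499, adjusted p 0.00953). Rises were also smaller in KO cells for Igfbp4, which binds insulin-like growth factors (interaction -0.44), the phosphatase Ptpn22 (-0.39) and Megf10, an engulfment receptor (-0.32). These last 3 started from higher ERT2 levels in KO cells, and each had the opposite sign on the unlogged scale. Slc1a5, a glutamine transporter, fell in KO cells alone, by 0.25 (interaction -0.34, SE 0.044, adjusted p 0.000642), and so did Dab2ip, a Ras GTPase-activating protein, by 0.29 (interaction -0.34, SE 0.0604, adjusted p 0.00605). Jade2, a subunit of histone acetyltransferase complexes, rose in WT cells alone, by 0.29 (interaction -0.34, SE 0.0544, adjusted p 0.00324).

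Further large interactions were those of genes at or below the median level. Ccr2, the receptor for monocyte chemoattractant proteins, had log2 values of 6.04, 6.04 and 6.02 in ERT2 WT, 6.36, 6.44 and 6.44 in Cre-ERT2 WT, 6.17, 6.19 and 6.29 in ERT2 KO and 8.29, 8.31 and 8.46 in Cre-ERT2 KO libraries. The ERT2 levels of the backgrounds were close, the Cre-ERT2 KO libraries stood far above the other groups, and the rise was 0.38 in WT and 2.14 in KO cells (interaction 1.76, SE 0.0635, adjusted p 8.2e-09). Dtx4, a ubiquitin ligase of the Deltex family, had log2 values of 7.98, 8.03 and 8.01 in ERT2 WT, 7.96, 7.99 and 8.04 in Cre-ERT2 WT, 8.70, 8.73 and 8.71 in ERT2 KO and 9.75, 9.73 and 9.72 in Cre-ERT2 KO libraries, a rise in KO cells alone (interaction 1.03, SE 0.0393, adjusted p 1.32e-08). Pcp4, a calmodulin-binding peptide, was listed at 5.25 in all 9 ERT2 WT, Cre-ERT2 WT and ERT2 KO libraries and at 6.34, 6.25 and 6.36 in Cre-ERT2 KO libraries (interaction 1.07, SE 0.0339, adjusted p 3.39e-09). C1qtnf1, a secreted protein of the C1q and TNF related family, rose by 0.13 in WT and 1.03 in KO cells (interaction 0.90, SE 0.0469, adjusted p 2.82e-07).

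In the negative direction, Tmem119, a membrane protein best known from bone cells and microglia, had log2 values of 8.14, 7.98 and 8.09 in ERT2 WT, 9.56, 9.53 and 9.51 in Cre-ERT2 WT, 8.86, 8.87 and 8.98 in ERT2 KO and 9.35, 9.36 and 9.26 in Cre-ERT2 KO libraries. Cre-ERT2 WT libraries were the highest, although ERT2 WT libraries were the lowest, and the rise was 1.46 in WT and 0.42 in KO cells (interaction -1.05, SE 0.0646, adjusted p 1.67e-06). Cpm, the membrane-bound carboxypeptidase M, had log2 values of 8.20, 8.27 and 8.26 in ERT2 WT, 9.59, 9.53 and 9.63 in Cre-ERT2 WT, 8.12, 8.02 and 8.17 in ERT2 KO and 8.51, 8.49 and 8.71 in Cre-ERT2 KO libraries. ERT2 levels were close between the backgrounds, and Cre-ERT2 WT libraries were the highest (interaction -0.87, SE 0.0786, adjusted p 3.8e-05). Nuak1, a kinase related to AMPK, rose by 1.16 in WT and 0.40 in KO cells (interaction -0.76, SE 0.048, adjusted p 2.04e-06), and Rassf4, a Ras association domain protein, rose by 0.36 in WT and fell by 0.19 in KO cells (interaction -0.55, SE 0.0496, adjusted p 3.8e-05).

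At low levels some genes had no spread in 1 background. In 119 of the 550 called genes the mean of 1 background was under 6, in 22 the 6 WT libraries lay within 0.01 of each other, and in 22 the 6 KO libraries did. Over all genes such flat values were found in 149 genes for WT and 78 for KO libraries. What the authors' transformation does to genes with few reads is not stated, and its part in these interactions was not tested.

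T and NK lineage genes had the highest share of called interactions of all lists, 8 of 11 members in the table (72.7%), 4 positive and 4 negative. Of the positive ones, Cd28, the costimulatory receptor of T cells, had log2 values of 6.51, 6.53 and 6.48 in ERT2 WT, 6.91, 6.93 and 6.98 in Cre-ERT2 WT, 6.90, 6.92 and 6.88 in ERT2 KO and 8.81, 8.83 and 8.92 in Cre-ERT2 KO libraries. ERT2 KO and Cre-ERT2 WT values were close, and Cre-ERT2 KO values were far higher (effects 0.44 in WT and 1.96 in KO cells, interaction 1.52, SE 0.0447, adjusted p 2.96e-09). Cd5, an inhibitory coreceptor of T and B-1 cells, had log2 values of 6.65, 6.67 and 6.67 in ERT2 WT, 7.21, 7.09 and 7.24 in Cre-ERT2 WT, 6.77, 6.78 and 6.83 in ERT2 KO and 7.76, 7.80 and 7.88 in Cre-ERT2 KO libraries (interaction 0.51, SE 0.0565, adjusted p 0.000196). The T cell receptor γ constant segments Tcrg-C2 and Tcrg-C1 had interactions of 0.67 (SE 0.0501, adjusted p 7.34e-06) and 0.50 (SE 0.0396, adjusted p 1.38e-05), and since these segments are near-identical, their reads cannot be assigned with certainty.

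The 4 negative members, chosen after their values were seen, include 3 proximal components of T cell receptor signaling. Lck, a Src family kinase, had log2 values of 8.92, 8.90 and 8.81 in ERT2 WT, 9.66, 9.66 and 9.73 in Cre-ERT2 WT, 7.46, 7.41 and 7.40 in ERT2 KO and 7.79, 7.73 and 7.74 in Cre-ERT2 KO libraries. The gene rose in both backgrounds, from a lower start in KO cells (interaction -0.48, SE 0.0494, adjusted p 0.000102). Zap70, a tyrosine kinase, rose by 0.65 in WT and 0.41 in KO cells (interaction -0.24, SE 0.0476, adjusted p 0.013), and Lat, an adaptor of the same pathway, by 0.23 in WT cells alone (interaction -0.25, SE 0.0363, adjusted p 0.00162). Klrd1, an NK cell lectin receptor, had an interaction of -0.15 (SE 0.026, adjusted p 0.00466). Of 10 T cell markers 3 were in the table, and their summed level was 1940 to 1968 unlogged units in ERT2 WT, 2362 to 2411 in Cre-ERT2 WT, 1919 to 1965 in ERT2 KO and 2011 to 2140 in Cre-ERT2 KO libraries. The 3 NK cell markers in the table summed to 142 to 143 units in ERT2 WT, 149 to 151 in Cre-ERT2 WT, 429 to 453 in ERT2 KO and 399 to 417 in Cre-ERT2 KO libraries, and the 2 myeloid markers in the table to 194 to 196, 189 to 194, 350 to 370 and 401 to 433 units in the same order. Both sums were thus higher in all KO than in all WT libraries. The part of other cells in the interactions was not tested.

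Signaling genes of the pre-B cell receptor were called in 4 of 27 cases (14.8%). Syk, the kinase that relays the pre-B cell receptor signal, had log2 values of 13.67, 13.71 and 13.69 in ERT2 WT, 13.84, 13.84 and 13.83 in Cre-ERT2 WT, 12.81, 12.80 and 12.79 in ERT2 KO and 13.35, 13.35 and 13.26 in Cre-ERT2 KO libraries. It was lower in KO cells, all Cre-ERT2 values lay above the ERT2 values of the same background, and the rise was 0.15 in WT and 0.52 in KO cells (interaction 0.37, SE 0.0353, adjusted p 6.07e-05). Rasgrp1 had log2 values of 10.97, 11.01 and 10.97 in ERT2 WT, 10.75, 10.78 and 10.71 in Cre-ERT2 WT, 9.08, 9.04 and 9.12 in ERT2 KO and 9.34, 9.30 and 9.17 in Cre-ERT2 KO libraries, falling in WT and rising in KO cells. Prkcb, a protein kinase C of B cells, rose by 0.29 in WT and 0.50 in KO cells (interaction 0.21, SE 0.0438, adjusted p 0.0172), and without ERT2 WT replicate 1 its adjusted p was 0.0502. Fyn, a Src family kinase, changed by 0.084 in WT and -0.091 in KO cells (interaction -0.18, SE 0.0288, adjusted p 0.00396). Lcp2, an adaptor below Syk and Zap70, rose by 0.26 in KO cells alone (interaction 0.40, SE 0.061, adjusted p 0.00232).

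Of the antigen receptor signaling genes named above, 4 hold the letters CTTTGA, the core of TCF and LEF binding sites, in the 250 bases before a RefSeq start site, and these stretches are shown to let the sequence be seen beside the values (build GRCm38.p6, capitals mark the core). They lie at chr13:52596857-52596881 for Syk, chr1:36761765-36761794 for Zap70, chr11:34046851-34046880 for Lcp2 and chr10:39369691-39369720 for Fyn, all on the plus strand, and the core begins 13, 21, 65 and 96 bases before the start site.
Syk: tgcttgctgacaCTTTGAggaaaag
Zap70: agcattttgttgCTTTGAcgtcaacttcaa
Lcp2: tatggtgcccagCTTTGAgtgtctgtaata
Fyn: cctcagcgggccCTTTGAtagggcagaaag
These 4 genes have interactions of both signs. Of the 96 named genes whose windows were searched, 13 held the core in the 250 bases upstream of the start site. No like count by gene was made over all genes, so this number has no background share. Over whole windows of 300 bases (both strands), the core was found in 11.9% of 10927 windows of all genes, 13.8% of 312 windows of genes with a positive and 13.9% of 209 windows of genes with a negative interaction. For GGGAA, the core bound by Ikaros, the shares were 64.5%, 66.0% and 67.9%, and for CACGTG, the E-box bound by Myc, 10.2%, 10.6% and 6.7%. These shares are descriptions of the windows, and a match is not a binding site.

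B lineage factors were called in 6 of 25 cases (24%), 3 in each direction. Lmo2, a bridging cofactor of early hematopoietic cells, had log2 values of 6.88, 6.81 and 6.88 in ERT2 WT, 6.85, 6.77 and 6.77 in Cre-ERT2 WT, 7.44, 7.52 and 7.54 in ERT2 KO and 8.20, 8.20 and 8.27 in Cre-ERT2 KO libraries, with a rise of 0.72 in KO cells alone (interaction 0.78, SE 0.0516, adjusted p 2.48e-06). Irf4, which promotes light chain rearrangement and plasma cell fate, had log2 values of 12.29, 12.31 and 12.22 in ERT2 WT, 12.51, 12.57 and 12.53 in Cre-ERT2 WT, 11.53, 11.49 and 11.49 in ERT2 KO and 12.01, 12.02 and 12.03 in Cre-ERT2 KO libraries, and rose in both backgrounds (interaction 0.25, SE 0.0378, adjusted p 0.00214). Ebf1, a founding factor of the B lineage, rose by 0.11 in WT cells alone (interaction -0.19, SE 0.0391, adjusted p 0.0175), and Pou2af1, a B cell coactivator of OCT factors, had an interaction of -0.13 (SE 0.0248, adjusted p 0.00845). Dntt, the terminal transferase that adds bases at V(D)J junctions, had log2 values of 12.64, 12.66 and 12.63 in ERT2 WT, 12.97, 12.92 and 12.94 in Cre-ERT2 WT, 11.77, 11.74 and 11.81 in ERT2 KO and 12.54, 12.54 and 12.54 in Cre-ERT2 KO libraries. All 4 groups were apart, and the rise was 0.30 in WT and 0.77 in KO cells (interaction 0.47, SE 0.0303, adjusted p 2.04e-06).

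Feedback genes of the ERK pathway, which curbs itself through induced phosphatases and adaptors, were called in 4 of 19 cases (21.1%), all positive. Beside Phlda1 these were Spry1, an inhibitor of receptor signaling (interaction 0.28, SE 0.0473, adjusted p 0.00473), Etv5, an ERK-induced ETS factor that rose by 0.74 in WT and 0.94 in KO cells (interaction 0.19, SE 0.037, adjusted p 0.0106), and Dusp5, a phosphatase of ERK (interaction 0.19, SE 0.0478, adjusted p 0.0457), where the call of Dusp5 was lost when any 1 of 10 libraries was left out (adjusted p up to 0.106, without Cre-ERT2 WT replicate 2). The median of the list was -0.0057, close to that of all genes. Among AP-1 and early-response factors 3 of 26 were called (11.5%), all positive, while 15 members had a negative sign (list median -0.013). The called members included Zfp36l2, an mRNA decay factor (interaction 0.34), and the nuclear receptor Nr4a1 (0.14), both of which rose in KO cells alone.

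Among D cyclins, CDKs and their inhibitors 3 of 21 were called (14.3%), all positive. Apart from Ccnd2, these were both genes of the INK4 locus. Cdkn2a, which encodes p16 and p19Arf from overlapping transcripts that 1 gene value does not separate, had log2 values of 8.28, 8.22 and 8.37 in ERT2 WT, 8.12, 8.06 and 8.10 in Cre-ERT2 WT, 9.03, 9.02 and 8.99 in ERT2 KO and 9.45, 9.50 and 9.34 in Cre-ERT2 KO libraries. It fell in WT and rose in KO cells (interaction 0.61, SE 0.0636, adjusted p 0.000105). Cdkn2b, encoding p15, rose by 0.14 in KO cells alone (interaction 0.15, SE 0.0263, adjusted p 0.00574). Gadd45a, a p53 target of the DNA damage response, likewise rose in KO cells alone, by 0.38 (interaction 0.31, SE 0.0481, adjusted p 0.00288). Of 25 measured p53 targets 2 were called (8%), both positive, while 18 had a negative sign, with a list median of -0.029. In KO cells 3 of these 25 targets rose (7.27% of all genes did) and 9 fell (5.33% of all genes). In WT cells 2 rose (5.93% of all genes) and 5 fell (5.95% of all genes). DNA replication genes had 0 of 42 and mitosis genes 1 of 40 called.

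Adhesion and matrix genes were called in 10 of 37 cases (27.0%), 7 positive and 3 negative, with a median of -0.0078. Apart from Mmp2, Iqgap2, Aplp2, Enpep and Megf10, they included the focal adhesion proteins Vcl (interaction 0.21) and Pxn (0.19) and the laminin receptor subunit Itga6 (-0.18), chosen after their values were seen. Chemokine receptors and G protein regulators were called in 6 of 30 cases (20.0%). Cxcr4, which holds pre-B cells in the marrow, had log2 values of 12.01, 12.001 and 12.06 in ERT2 WT, 12.33, 12.29 and 12.33 in Cre-ERT2 WT, 11.50, 11.48 and 11.49 in ERT2 KO and 12.02, 12.03 and 12.04 in Cre-ERT2 KO libraries, and rose by 0.29 in WT and 0.54 in KO cells (interaction 0.25, SE 0.0313, adjusted p 0.000591). Cxcr5, which guides B cells to follicles, rose by 0.45 in WT cells alone (interaction -0.35, SE 0.0497, adjusted p 0.00149). The G protein brakes Rgs1 and Rgs10 had interactions of 0.46 (SE 0.0797, adjusted p 0.0054) and 0.30 (SE 0.049, adjusted p 0.00435).

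Genes of the insulin-like growth factor axis and imprinted genes had a negative sign in all 9 measured members, of which 3 were called (33.3%). H19, an imprinted noncoding RNA next to Igf2, had log2 values of 7.02, 6.67 and 6.66 in ERT2 WT, 6.67, 6.67 and 6.68 in Cre-ERT2 WT, 10.07, 10.10 and 10.15 in ERT2 KO and 9.47, 9.44 and 9.56 in Cre-ERT2 KO libraries. ERT2 WT replicate 1 stood above the other 5 WT libraries. The RNA was higher in all KO libraries and fell there by 0.62 (interaction -0.50, SE 0.106, adjusted p 0.0176), and without ERT2 KO replicate 3 its adjusted p was 0.0504. Igf2 was listed at 5.34 in all 6 WT libraries, at 5.97, 5.99 and 6.11 in ERT2 KO and at 5.51, 5.52 and 5.56 in Cre-ERT2 KO libraries (interaction -0.50, SE 0.0424, adjusted p 2.4e-05). Igf2 thus had the same value in all WT libraries, and the part of a lower limit of the scale was not tested.

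Stress and metabolic genes were mixed. Of 39 genes of the unfolded protein and integrated stress responses 9 were called (23.1%), 5 positive and 4 negative, and this count ranged down to 3 without ERT2 WT replicate 2, Cre-ERT2 WT replicate 2 or ERT2 KO replicate 3, to 4 without Cre-ERT2 WT replicate 1, and to 5 without ERT2 WT replicate 1 or 3 or Cre-ERT2 KO replicate 2. Asns, the asparagine synthetase, fell by 0.30 in KO cells alone (interaction -0.26, SE 0.0439, adjusted p 0.00447). Mthfd2, a mitochondrial folate enzyme, fell in both, by 0.075 in WT and 0.24 in KO cells (interaction -0.16, SE 0.0314, adjusted p 0.0102). Cebpb, a bZIP factor, had log2 values of 5.76, 5.73 and 5.92 in ERT2 WT, 5.20, 5.19 and 5.18 in Cre-ERT2 WT, 5.22, 5.23 and 5.20 in ERT2 KO and 5.20, 5.23 and 5.24 in Cre-ERT2 KO libraries. It fell in WT cells to the level that KO cells had in both groups (interaction 0.62, SE 0.053, adjusted p 2.4e-05). This level was low, and the part of a lower limit of the scale was not tested. The lactate transporters Slc16a1 and Slc16a3 had interactions of 0.22 (SE 0.0359, adjusted p 0.00325) and 0.29 (SE 0.0515, adjusted p 0.00671). They are the 2 positive calls of the glycolysis and glucose transport list, where 5 of 29 were called (17.2%), the other 3 negative. In that list 20 of 29 members had a negative sign, with a median of -0.021. Solute carriers as a whole were called in 12 of 179 cases (6.70%).

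Over the 46 lists, which overlap, the called share was above that of all genes in 30 and was 0 in 9. Beside the destruction complex, NuRD, DNA replication and cytosolic ribosomal protein lists, the lists without a called gene were the BCL2 family (17), MHC and antigen presentation (18), mitochondrially encoded genes (13), proteasome subunits (37) and the TCP-1 chaperonin ring (8). Of the 249 members of these 9 lists, 55 passed an unadjusted p of 0.05, against 2101 of 12151 over all genes. Small lists give coarse shares, and no test was made over the lists.

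**Figure D5:**
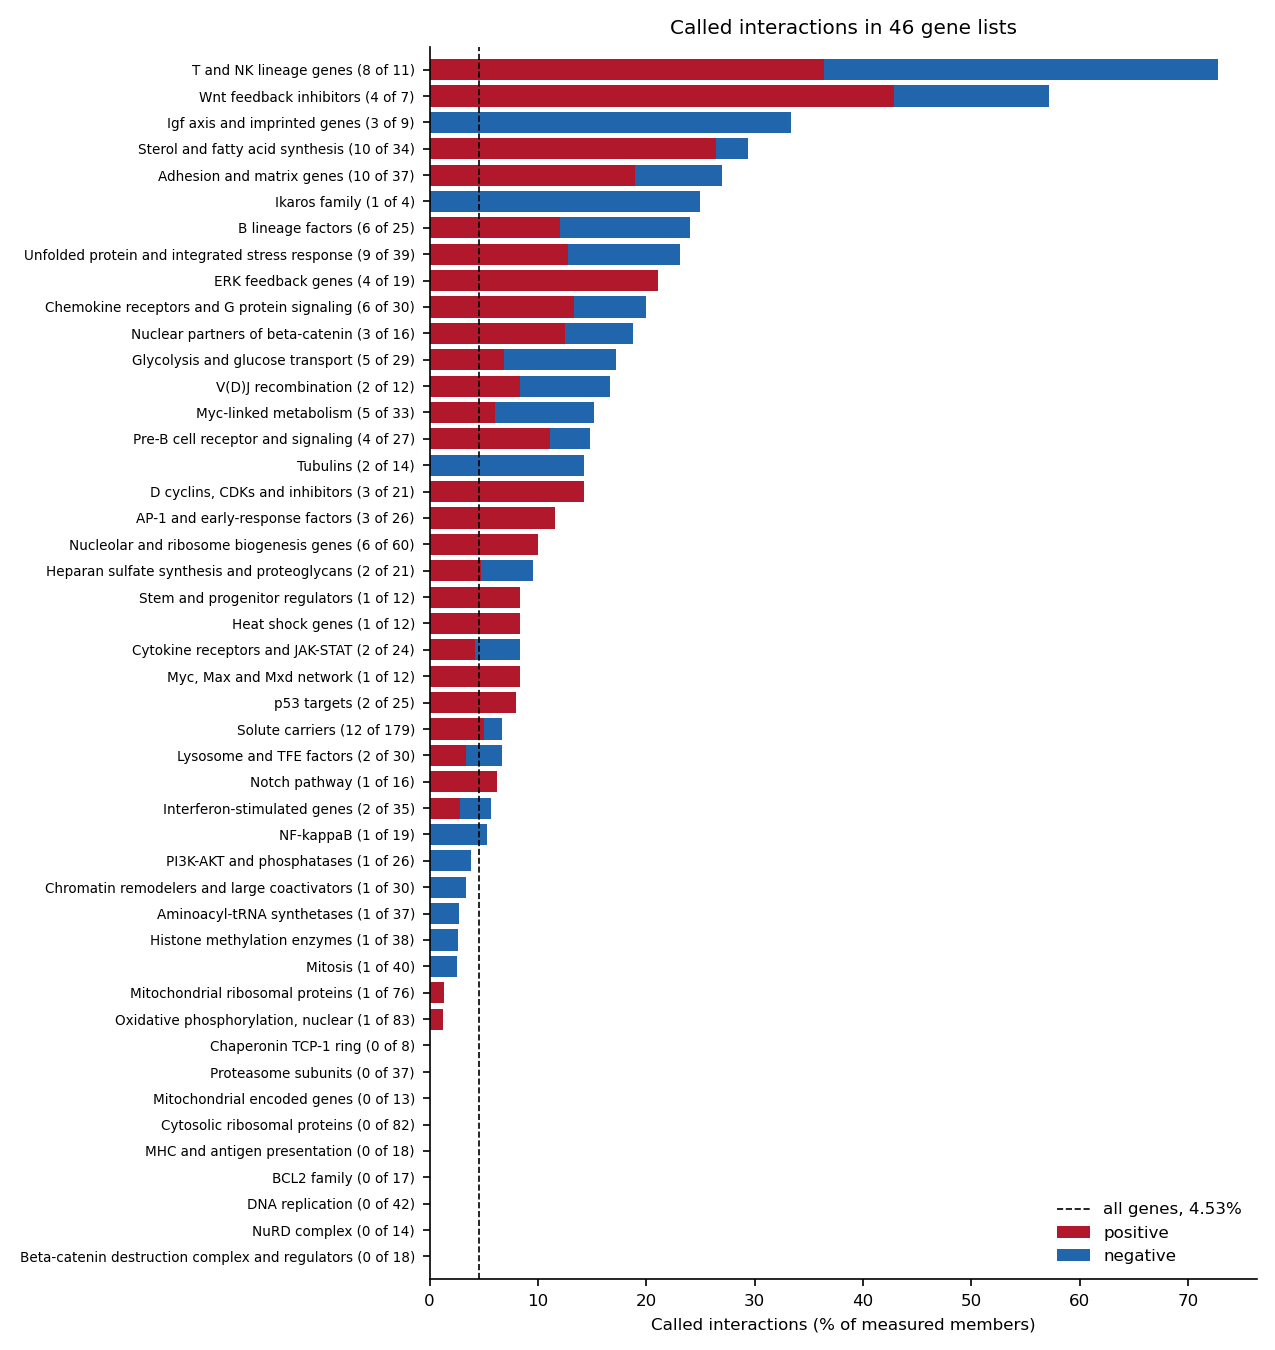
Share of measured members with a called interaction (horizontal axis, %) in 46 gene lists, positive in red and negative in blue, with called and measured members in parentheses and the share of all genes (4.53%) as a dashed line. T and NK lineage genes have the highest share, and 9 lists have none.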

How the data were processed

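RNA from 3 libraries per group was sequenced after poly(A) selection with the KAPA stranded mRNA kit. Per the study's methods and the submitters' processing notes, reads were handled with Salmon 1.4.0, STAR 2.7.6 and DESeq2 1.30.1 on mm10. The authors deposited 1 table of log2 expression values, used here as deposited, whose normalization and transformation are not given in the sources used here. A group-means model over 12 libraries was fitted in limma 3.58.1 (R 4.3.3, eBayes with trend), and p values were adjusted by Benjamini-Hochberg over all 12151 genes. Calls required adjusted p under 0.05. The code was tested on simulated data. Named genes were the study's genes, the largest called interactions (excluding Gm, Rik and pseudogene names), the largest in each list and form, and others stated as chosen after their values were seen. Members and lists were chosen with earlier results of these data known. Gene coordinates are from GENCODE M21 (GRCm38). Alternatives changed the scaling, filter, scale, moderation, threshold, block and libraries. Replicate numbers were not used to pair the samples in the main fit.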

Additional observations from a re-analysis of the deposited data

Results flagged for a closer look

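The test of the difference between the KO and the WT response called 550 genes, and each gene named with a called interaction is given here with that difference (KO effect minus WT effect, log2 units, mean of 3 libraries per group), from the limma fit over all genes. Of genes with a called effect in KO cells alone, the difference was positive for Mmp2 1.08, Pcp4 1.07, Dtx4 1.03, Lmo2 0.78, Aplp2 0.60, Tcrg-C1 0.50, Eps8 0.46, Rab31 0.45, Lcp2 0.40, Zfp36l2 0.34, Gadd45a 0.31, Spry1 0.28, Nsdhl 0.24, Vcl 0.21, Dhcr7 0.18, Fads2 0.16, Cdkn2b 0.15, Znrf3 0.14, Aes 0.14 and Nr4a1 0.14. It was negative for Tcf7l1 -0.16, Itga6 -0.18, Asns -0.26, Fasn -0.32, Dab2ip -0.34, Slc1a5 -0.34, Igf2 -0.50 and H19 -0.50. Of genes with a called effect in WT cells alone, the difference was positive for Cebpb 0.62, Rgs10 0.30, Slc16a3 0.29, Mvd 0.24, Heatr1 0.21, Scd2 0.20, Hmgcs1 0.20, Pxn 0.19, Mvk 0.18 and Bambi 0.13, and negative for Pou2af1 -0.13, Ebf1 -0.19, Lat -0.25, Tubb2b -0.26, Jade2 -0.34, Cxcr5 -0.35 and Tubb3 -0.41. Where both effects were called in the same direction, the larger one lay in KO cells with differences of Ccr2 1.76, Cd28 1.52, C1qtnf1 0.90, Tcrg-C2 0.67, Tcf7 0.58, Nkd1 0.57, Phlda1 0.54, Cd5 0.51, Dntt 0.47, Rgs1 0.46, Abhd2 0.43, Syk 0.37, Sbk1 0.32, Irf4 0.25, Cxcr4 0.25, Slc16a1 0.22, Prkcb 0.21, Etv5 0.19, Ikzf1 -0.10 and Mthfd2 -0.16, and in WT cells with differences of Myc 0.31, Srm 0.21, Dusp5 0.19, Axin2 -0.15, Klrd1 -0.15, Zap70 -0.24, Megf10 -0.32, Ptpn22 -0.39, Igfbp4 -0.44, Enpep -0.47, Lck -0.48, Nuak1 -0.76, Cpm -0.87, Tmem119 -1.05 and Gm5537 -2.53. With called effects in opposite directions the differences were Cdkn2a 0.61, Iqgap2 0.60, Ccnd2 0.47, Ehd2 0.43, Rasgrp1 0.43, Tmem229b 0.42, Fyn -0.18, Ets1 -0.37, Kmt2d -0.39, Rassf4 -0.55 and Ndst1 -0.68. Neither effect was called for Cyp51 0.18. The sign of the difference alone does not say in which background a gene rose or fell. No explanation of these differences was tested.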

How the results depend on the processing

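On the log2 scale no alternative turned the sign of a named interaction. With genes of a mean above 8 only, 337 interactions were called, 180 of them positive. At an adjusted p under 0.01, 240 were called (165 positive, 75 negative), with 787 effects in WT (428 up, 359 down) and 790 in KO cells (513 up, 277 down). With a difference of at least 0.5 also required, 35 were called (28 positive, 7 negative), with 42 effects in WT (37 up, 5 down) and 62 in KO cells (58 up, 4 down). These alternatives are narrower by construction. Leaving out 1 library at a time, the number of interactions lay between 383 (without Cre-ERT2 WT replicate 1) and 595 (without Cre-ERT2 KO replicate 3), the positive ones between 237 and 341, and the negative ones between 132 (without ERT2 KO replicate 3) and 254 (without Cre-ERT2 KO replicate 3). The negative count was also low without ERT2 WT replicate 1 (135) and Cre-ERT2 WT replicate 1 (140). Effects that fell in KO cells numbered 416 (without ERT2 KO replicate 2) to 617. On the unlogged scale, in normalized units, the interaction had the opposite sign for Myc (-296.6), Kremen1 (66.9), Igfbp4 (460.4), Ptpn22 (426.5), Megf10 (973.6) and Sbk1 (-377.7). In the limma fit on that scale, 15 further named genes lost the call and 2 gained it. Among those that lost it were Prkcb (adjusted p 0.533), Irf4 (0.294), Slc16a3 (0.215), Pxn (0.194) and Gm5537 (0.141). A replicate block gave 424 called interactions, and 27 of the 134 called named genes lost the call under it. The replicate numbers share no stated source, and over 18 pairs of same-numbered libraries 2 correlations of their deviations exceeded 0.1 (median -0.0055). These were 0.31 between replicate 1 of Cre-ERT2 WT and of Cre-ERT2 KO, and 0.13 between replicate 2 of ERT2 KO and of Cre-ERT2 KO. Of 134 called genes chosen by the naming rule or later, 93 kept the call in all 12 leave-one-out fits. Where a call was lost, the cause was not tested. Depth is unknown, the clones behind the libraries are not given, and 3 libraries per group limit the precision.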
